A study of Mus musculus with 10 samples.

Results

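The RNA levels of 36 synaptic scaffold, vesicle and receptor genes were examined in mouse embryonic stem cells (mESCs). The set is a list of named genes of the synapse that was chosen with earlier results of these data known, so the shares called among them are not independent evidence. All 36 were found among the 34591 genes of the expression table, and 26 of them reached at least 0.1 FPKM (fragments scaled to exon length and library size) in 2 or more of the 10 libraries. The other 10 stayed below that level, namely *Dlg2*, *Shank2*, *Nlgn1*, *Nlgn3*, *Nrxn3*, *Syt1*, *Snap25*, *Gria1*, *Gria2* and *Gria3*. By the same rule, 17870 of the 34591 genes were measured.

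The study asked how the transcriptome changes when the mitotic deacetylase complex (MiDAC), a histone deacetylase complex with the scaffold proteins DNTTIP1 and ELMSAN1, is disrupted. WT mESCs were set beside clones D2A7 and D1E6, which lack a functional *Dnttip1* gene (*Dnttip1* KO), and clones E2E8 and E2G7, which lack a functional *Elmsan1* gene (*Elmsan1* KO), with 2 total RNA libraries from each line. The KO clones were made with CRISPR/Cas9 and carry insertions or deletions that end the reading frame early, and each KO line is a single clone grown from sorted cells. All lines, WT included, were kept in a defined naive medium (2iL) with LIF and inhibitors of GSK3β and MEK and were not differentiated into neurons. The study calls its replicates biological, but the labels do not say whether the 2 libraries of a line came from separate cultures, and p-values measure only the spread between these libraries, which may be technical.

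At a chemical synapse, neurotransmitter is packed into vesicles, which dock at the active zone of the sending cell and fuse with its membrane through SNARE proteins when synaptotagmins sense calcium. On the receiving side, ligand-gated receptors are held in place by scaffolds of the postsynaptic density, and neurexins and neuroligins bridge the cleft between the cells. Several of these families also serve membrane traffic and cell polarity outside the nervous system, and most of the genes reach their full level only in neurons.

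Library depth ranged from 31098283 fragments in WT to 86464024 in E2G7. *Dnttip1* RNA was at 8.15 and 8.43 FPKM in WT and between 2.59 and 4.57 in the *Dnttip1* KO libraries. *Elmsan1*, listed under an older symbol of the same gene, was at 5.39 and 5.53 FPKM in WT and between 4.62 and 5.18 in the *Elmsan1* KO libraries, and an indel need not lower the RNA, so this level is no check of those labels. All 8 embryonic stem cell markers (*Pou5f1*, *Nanog*, *Sox2* and others) exceeded 1 FPKM in every library, and none of them passed the calling rule in either knockout against WT. Clone by clone, 1 of the 8 was called higher in D2A7 (12.5%, beside 10.8% of all genes) and 0 were called in the other clones. Genes of chromosome 8 lay by a median of 0.35 to 0.38 on the log2 scale above WT in the 8 KO libraries, and genes of chromosome 6 by 0.29 to 0.43 in D1E6, E2E8 and E2G7. *Homer3* lies on chromosome 8 and none of the 36 genes on chromosome 6.

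The synaptic genes spanned a wide range of levels in mESCs. *Dlg1*, a membrane-associated guanylate kinase (MAGUK) scaffold that also organizes polarity in epithelia, was the most abundant, with 11.7 to 13.3 FPKM over the 10 libraries. *Homer3*, *Dlg3*, *Nlgn2* and *Homer1* followed with medians of 7.17, 4.62, 4.38 and 3.18 FPKM. At the other end, *Grin2d* and *Syt4* had medians of 0.0760 and 0.0643 FPKM. Of the 36 genes, 12 reached 1 FPKM in at least 2 libraries. The summed level of the 26 measured genes was alike in all lines, from 44.4 to 49.0 FPKM.

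**Figure D1:**
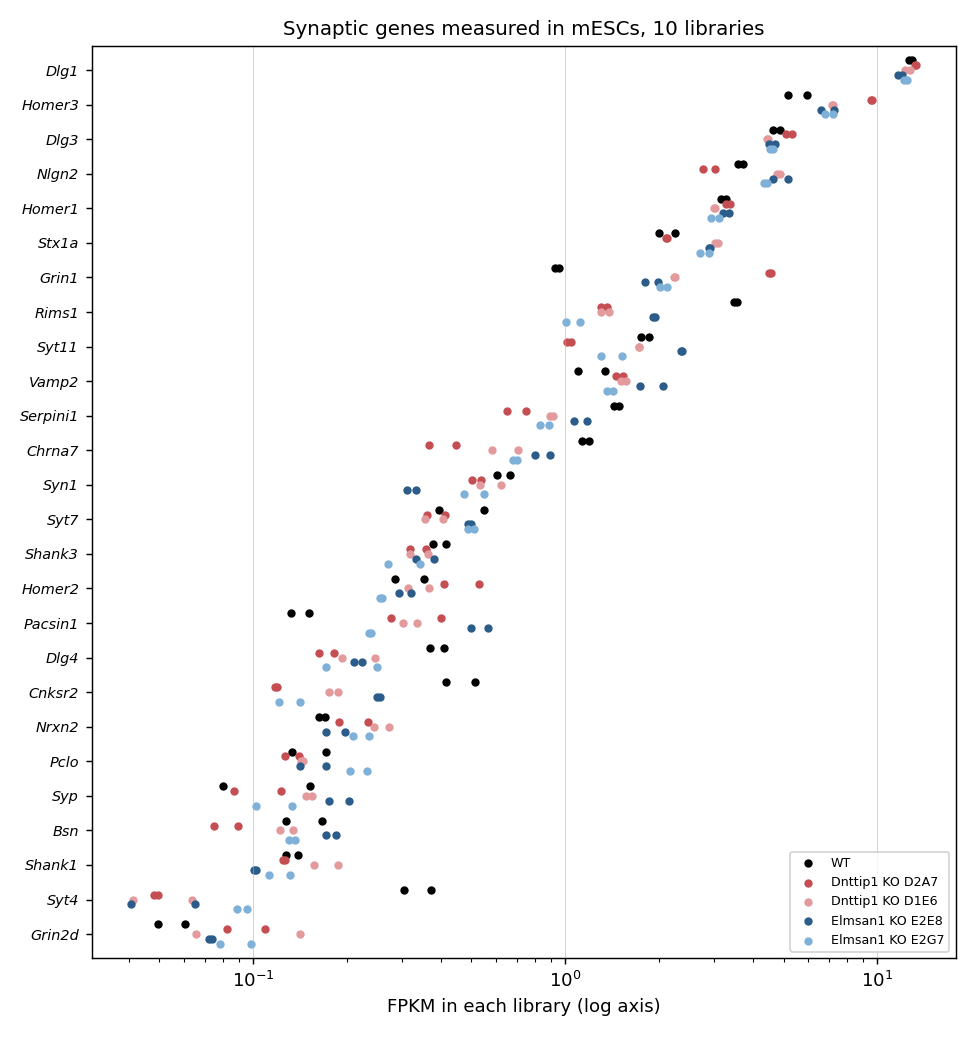
Levels of the 26 measured synaptic genes in each of the 10 libraries, in FPKM on a log axis, with a row per gene ordered by mean level and a colour per line. *Rims1*, *Cnksr2* and *Syt4* show the WT points apart on the right and *Grin1* and *Pacsin1* show them apart on the left, while the points of *Dlg1*, *Dlg3* and *Homer1* lie close together.

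Each knockout was compared with WT, 4 libraries against 2, by limma's moderated test on log2(FPKM + 0.1), a scale that understates changes of genes near 0.1 FPKM. Following the study's rule, a gene was called if it differed by 1.5-fold or more with p under 0.01 before adjustment. For 4 libraries against 2, the smallest two-sided p of an exact permutation test is 0.0667.

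In *Dnttip1* KO mESCs, *Rims1*, *Cnksr2*, *Chrna7*, *Serpini1* and *Dlg4* were called lower than in WT. They are 5 of the 24 genes with at least 0.1 FPKM in a library of each group (20.8%), beside 3.07% of the 16603 genes that met this condition. *Grin1* and *Pacsin1* were called higher, or 8.33% beside 3.02%. The condition was added after the data were seen, because *Syt4* reached 0.1 FPKM only in WT and, having entered the test through WT alone, had to lie lower in the knockouts. With *Syt4* and *Grin2d*, which reached that level only in *Dnttip1* KO, the counts were 6 lower and 2 higher of 26 (23.1% and 7.69%), beside 3.24% and 3.26% of the 17435 genes tested. The other 18 genes were not called and lay between -0.43 and 0.54 on the log2 scale. The median of the 26 log2 fold changes was -0.03, beside 0.02 for all genes tested.

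In *Elmsan1* KO mESCs, *Rims1* and *Cnksr2* were called lower, 2 of 24 genes with 0.1 FPKM in a library of each group (8.33%), beside 3.27% of 16498 genes. *Grin1* alone was called higher, or 4.17% beside 2.58%. With *Syt4*, the counts were 3 lower and 1 higher of 25 (12% and 4%), beside 3.68% and 2.74% of the 17205 genes tested. The 21 uncalled genes lay between -0.66 and 0.92, the median of the 25 was -0.06 and that of all genes 0.00. *Rims1*, *Cnksr2* and *Grin1* were also among those called in *Dnttip1* KO cells, but both comparisons use the same 2 WT libraries and are not independent. *Grin2d* was under the level needed for a test here.

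The calls rest on few libraries, and *Syt4* did not enter the test once a WT library was left out. With WT replicate 1 or WT replicate 2 left out, 1 WT library remained in the test. Most lower calls and all higher calls in *Dnttip1* KO cells were then lost. In *Elmsan1* KO cells all lower calls were lost, and *Grin1* remained called higher. Calls over all genes tested also fell in both knockouts, and whether the loss was greater among the synaptic genes was not tested. Libraries of a clone are also alike, and with an estimated correlation within clones *Rims1* was still called lower and *Grin1* higher in both knockouts, and no other gene except *Syt4* in *Dnttip1* KO was.

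Among the active zone proteins, *Rims1* stood apart. It encodes RIM1, a scaffold of the presynaptic release site that binds calcium channels and vesicle proteins. *Rims1* was at 3.53 and 3.47 FPKM in WT, 1.30 and 1.35 in D2A7, 1.30 and 1.38 in D1E6, 1.91 and 1.94 in E2E8, and 1.00 and 1.12 in E2G7. All 8 KO libraries lay below both WT libraries, with E2E8 the highest of them. *Rims1* was 2.56-fold lower in *Dnttip1* KO (log2 fold change -1.36 ± 0.09 SE, adjusted p = 0.00324, and 0.0489 with an estimated correlation within clones). In *Elmsan1* KO it was 2.39-fold lower (-1.26 ± 0.29 SE, adjusted p = 0.0445, or 0.181 with an estimated correlation), a call that was lost without either WT library. *Bsn* and *Pclo*, which encode the giant active zone organizers Bassoon and Piccolo, ranged over 0.0747 to 0.184 and 0.126 to 0.231 FPKM, and neither was called in either knockout.

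Among the glutamate receptor subunits, *Grin1* moved the opposite way. It encodes GluN1, the obligatory subunit of NMDA receptors. *Grin1* was at 0.925 and 0.952 FPKM in WT, 4.50 and 4.56 in D2A7, 2.23 and 2.24 in D1E6, 1.80 and 1.98 in E2E8, and 2.01 and 2.11 in E2G7. Every KO library exceeded both WT libraries, and the D2A7 pair lay far above the rest. *Grin1* was 3.12-fold higher in *Dnttip1* KO (1.64 ± 0.36 SE, adjusted p = 0.0435, or 0.129 with an estimated correlation), a call lost when either WT library was left out. In *Elmsan1* KO it was 1.97-fold higher (0.98 ± 0.12 SE, adjusted p = 0.00734, or 0.135 with an estimated correlation). *Grin2d*, a further NMDA receptor subunit, ranged from 0.0495 to 0.141 FPKM and was not called in *Dnttip1* KO (0.34 ± 0.24 SE).

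*Rims1* and *Grin1* had the smallest adjusted p of the genes called lower and higher in *Dnttip1* KO, and their promoters are shown for that reason. They are the 250 bases before the RefSeq start on the minus strand in GRCm38.p6, with the dinucleotide CG in capitals. The *Rims1* stretch is chr1:22806159-22806408 and belongs to a RefSeq start that lies 98676 bases inside the gene of the older annotation used for the expression table. The *Grin1* stretch is chr2:25319188-25319437 and its start coincides with the annotated one.
Rims1 promoter: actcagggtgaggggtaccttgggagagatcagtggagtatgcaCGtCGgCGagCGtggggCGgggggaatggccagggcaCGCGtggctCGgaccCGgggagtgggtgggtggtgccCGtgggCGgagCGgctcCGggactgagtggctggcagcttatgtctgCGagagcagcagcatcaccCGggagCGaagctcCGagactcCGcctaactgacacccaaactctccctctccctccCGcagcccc
Grin1 promoter: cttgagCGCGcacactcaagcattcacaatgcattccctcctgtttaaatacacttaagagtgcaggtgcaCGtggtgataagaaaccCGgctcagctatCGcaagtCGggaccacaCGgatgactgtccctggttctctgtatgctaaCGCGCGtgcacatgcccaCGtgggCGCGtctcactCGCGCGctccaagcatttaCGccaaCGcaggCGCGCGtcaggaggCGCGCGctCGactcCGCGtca
With the 50 bases after the start included, the window holds 26 CG at *Rims1* and 33 at *Grin1*, against a median of 7 over 32851 RefSeq promoters of the same length (quartiles 3 and 20). Of the 36 synaptic genes, 26 had an entry, with 41 promoters and a median of 16 CG.

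The 3 synaptotagmins that were measured and tested differed from each other. *Syt4*, which encodes an atypical synaptotagmin of neuronal vesicles, was at 0.305 and 0.372 FPKM in WT, 0.0495 and 0.0482 in D2A7, 0.0637 and 0.0411 in D1E6, 0.0406 and 0.0649 in E2E8, and 0.0954 and 0.0889 in E2G7. All KO libraries lay below 0.1 FPKM and both WT libraries above it, which is given as a description with no test. Over all libraries it was covered by 225 fragments, so a single library held few of them. *Syt11*, a relative of *Syt4*, was at 1.75 and 1.85 FPKM in WT, 1.01 and 1.04 in D2A7, 1.72 and 1.72 in D1E6, 2.35 and 2.37 in E2E8, and 1.52 and 1.30 in E2G7. It was not called in either knockout as a whole, and its clones lay on both sides of WT in *Elmsan1* KO. *Syt7*, a calcium sensor of slow release and of lysosome fusion, ranged from 0.355 to 0.549 FPKM and was not called.

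Among the MAGUK scaffolds, *Dlg4* was low. It encodes PSD-95, the main scaffold of excitatory postsynaptic densities. *Dlg4* was at 0.407 and 0.368 FPKM in WT, 0.162 and 0.182 in D2A7, 0.245 and 0.193 in D1E6, 0.210 and 0.224 in E2E8, and 0.171 and 0.248 in E2G7. The WT libraries lay above all KO libraries. It was called in *Dnttip1* KO (1.68-fold lower, -0.75 ± 0.19 SE, adjusted p = 0.0616, or 0.476 with an estimated correlation), but this call was lost without either WT library and without D2A7 replicate 1, D2A7 replicate 2 or D1E6 replicate 2. In *Elmsan1* KO its log2 fold change was -0.66 ± 0.18 (SE) with an adjusted p of 0.0730 by limma and no call. *Dlg1* was at 12.6 and 12.9 FPKM in WT, 13.3 and 13.2 in D2A7, 12.2 and 12.7 in D1E6, 11.99 and 11.7 in E2E8, and 12.4 and 12.1 in E2G7. Its highest and lowest libraries differed by a factor of 1.14, and its log2 fold changes were -0.01 ± 0.06 (SE) and -0.10 ± 0.06 (SE). *Dlg3*, the X-linked MAGUK SAP102, ranged from 4.43 to 5.30 FPKM and was not called.

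The SHANK and HOMER proteins form the deeper layer of the postsynaptic density and link receptors to the actin cytoskeleton and to calcium stores. Of the 5 that were tested, none was called in either knockout. *Homer3* was at 5.18 and 5.96 FPKM in WT, 9.54 and 9.59 in D2A7, 7.22 and 7.16 in D1E6, 6.59 and 7.26 in E2E8, and 7.18 and 6.77 in E2G7. All KO libraries exceeded WT, by 0.54 ± 0.16 (SE) in *Dnttip1* KO and 0.29 ± 0.08 (SE) in *Elmsan1* KO on the log2 scale. After the median shift of each chromosome was removed, these values became 0.17 and -0.06. *Homer1* and *Homer2* ranged over 2.92 to 3.36 and 0.255 to 0.528 FPKM, and *Shank1* and *Shank3* over 0.100 to 0.187 and 0.269 to 0.416 FPKM.

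Of the adhesion proteins, *Nlgn2*, the neuroligin of inhibitory synapses, was at 3.58 and 3.71 FPKM in WT, 2.76 and 3.03 in D2A7, 4.88 and 4.78 in D1E6, 4.63 and 5.16 in E2E8, and 4.34 and 4.42 in E2G7. D2A7 lay below WT and the other clones above it. *Nlgn2* was not called in *Dnttip1* KO (0.01 ± 0.26 SE) or in *Elmsan1* KO (0.31 ± 0.09 SE, adjusted p = 0.0846). *Nrxn2*, a presynaptic neurexin, ranged from 0.163 to 0.271 FPKM and was not called.

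Of the core of the release machinery, *Stx1a*, *Vamp2*, *Syn1* and *Syp* were tested and not called in either knockout. The SNARE genes *Stx1a* and *Vamp2*, which encode syntaxin-1A of the plasma membrane and synaptobrevin-2 of the vesicle, ranged over 1.99 to 3.09 and 1.10 to 2.06 FPKM. *Stx1a* lay at 0.39 ± 0.11 (SE) in *Elmsan1* KO, with all its libraries above WT and a fold change below the threshold. *Syn1* and *Syp*, encoding the vesicle proteins synapsin-1 and synaptophysin, ranged over 0.312 to 0.663 and 0.0802 to 0.203 FPKM. *Syn1* lay at -0.55 ± 0.24 (SE) in *Elmsan1* KO, where the E2E8 libraries were the lowest with 0.332 and 0.312 FPKM beside 0.604 and 0.663 in WT.

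*Chrna7* encodes the α7 subunit of nicotinic acetylcholine receptors, a calcium-permeable channel. Its level was 1.13 and 1.19 FPKM in WT, 0.365 and 0.447 in D2A7, 0.583 and 0.706 in D1E6, 0.894 and 0.799 in E2E8, and 0.701 and 0.682 in E2G7. No KO library reached the WT level, and D2A7 was the lowest line. *Chrna7* was 2.10-fold lower in *Dnttip1* KO (-1.07 ± 0.24 SE, adjusted p = 0.0471, or 0.271 with an estimated correlation), a call lost without either WT library and without D2A7 replicate 2. In *Elmsan1* KO its log2 fold change was -0.57 ± 0.15 (SE) with an adjusted p of 0.0669 by limma, below the fold needed for a call.

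The remaining 3 genes serve postsynaptic signalling, endocytosis and proteolysis. *Cnksr2*, an X-linked scaffold that binds MAGUKs and Ras pathway proteins, was at 0.414 and 0.514 FPKM in WT, 0.117 and 0.119 in D2A7, 0.175 and 0.187 in D1E6, 0.249 and 0.254 in E2E8, and 0.121 and 0.141 in E2G7. KO and WT libraries did not overlap, and E2E8 was the KO line nearest to WT. *Cnksr2* was 2.30-fold lower in *Dnttip1* KO (-1.20 ± 0.21 SE, adjusted p = 0.0241, or 0.231 with an estimated correlation) and 2.00-fold lower in *Elmsan1* KO (-0.998 ± 0.26 SE, adjusted p = 0.0644, or 0.399 with an estimated correlation). The call in *Dnttip1* KO was lost without WT replicate 2, and that in *Elmsan1* KO without either WT or either E2G7 library.

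*Serpini1* encodes neuroserpin, an inhibitor of tissue plasminogen activator that neurons secrete. It was at 1.48 and 1.43 FPKM in WT, 0.746 and 0.648 in D2A7, 0.896 and 0.912 in D1E6, 1.17 and 1.06 in E2E8, and 0.887 and 0.832 in E2G7. The order of the lines was that of *Chrna7* at its ends, with WT highest, E2E8 next and D2A7 lowest. *Serpini1* was 1.77-fold lower in *Dnttip1* KO (-0.82 ± 0.17 SE, adjusted p = 0.0356, or 0.256 with an estimated correlation), which was not called without either WT library, and lay at -0.55 ± 0.17 (SE) in *Elmsan1* KO without a call.

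*Pacsin1*, which encodes the neuronal syndapin that bends membranes during vesicle retrieval, was at 0.132 and 0.151 FPKM in WT, 0.399 and 0.277 in D2A7, 0.335 and 0.302 in D1E6, 0.564 and 0.497 in E2E8, and 0.239 and 0.234 in E2G7. Both WT libraries lay below all others. It was 1.75-fold higher in *Dnttip1* KO (0.80 ± 0.19 SE, adjusted p = 0.0517, or 0.480 with an estimated correlation), a call lost without WT replicate 1, WT replicate 2, D2A7 replicate 1, D1E6 replicate 1 or D1E6 replicate 2. In *Elmsan1* KO its difference was as large but more spread, at 0.92 ± 0.35 (SE) with an adjusted p of 0.150.

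**Figure D2:**
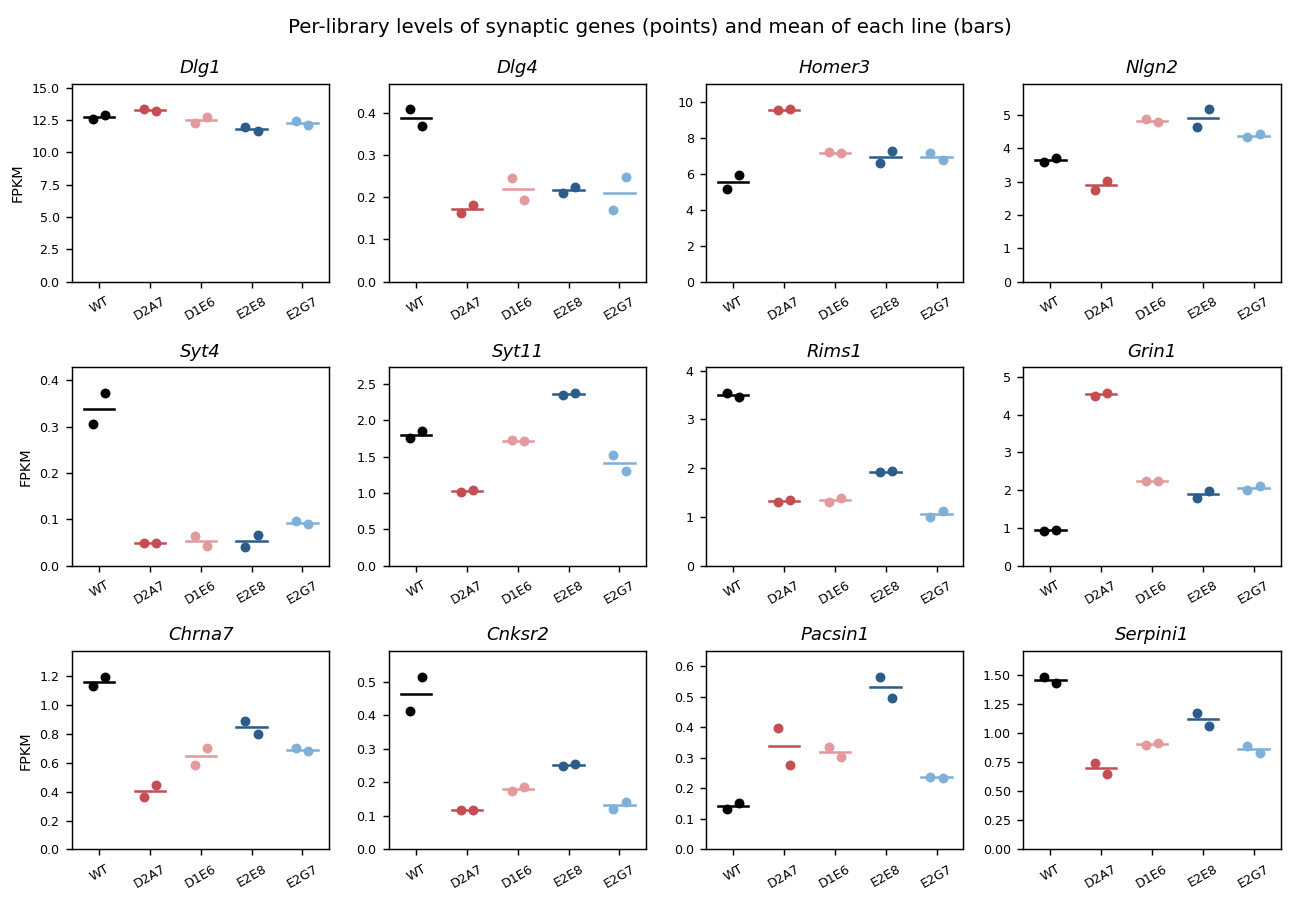
FPKM of the 12 synaptic genes whose values are given for every library, on a linear axis from 0, with a panel per gene, a point per library and a bar at the mean of each line. WT lies above all 4 KO clones in *Rims1*, *Cnksr2*, *Syt4*, *Dlg4*, *Chrna7* and *Serpini1* and below them in *Grin1*, *Pacsin1* and *Homer3*. Clones of the same knockout met the calling rule against each other in *Grin1*, *Nlgn2*, *Syt11*, *Rims1* and *Pacsin1*.

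A separation of the groups alone was common. In *Dnttip1* KO, 9 of 26 genes, *Syt4* among them, had all KO libraries below WT, beside 20.7% of all genes tested, and 6 had all of them above, beside 21.1%. In *Elmsan1* KO these counts were 9 of 25, again with *Syt4*, beside 21.8%, and 7 of 25, beside 21.3%.

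When each clone was compared with WT in a fit over all 5 lines, *Rims1*, *Cnksr2* and *Dlg4* were called lower and *Grin1* higher in all 4 clones. With only the clone and WT in the fit, the call of *Dlg4* was kept in D2A7 and lost in D1E6, E2E8 and E2G7, where its adjusted p by limma was 0.0616, 0.0306 and 0.0706. For D2A7, 7 of 26 genes were called lower beside 5.48% of 17870 genes, and 3 higher beside 10.8%. For D1E6 the counts were 6 lower beside 5.94% and 2 higher beside 5.04%. E2E8 had 5 lower beside 5.92% and 2 higher beside 10.2%, and E2G7 had 6 lower beside 6.4% and 1 higher beside 3.55%. Each of these lower counts includes *Syt4*, which again reached 0.1 FPKM only in WT. Among genes with 0.1 FPKM in a library of both the clone and WT, 6 of 23 were called lower in D2A7 and 5 of 24 in D1E6. In E2E8 there were 4 of 24 and in E2G7 5 of 24. The share of all genes under that condition was not computed for the clones, and the shares given above are over a wider set. These fits take the spread between 2 libraries of a line and all share the WT pair. *Chrna7* and *Serpini1* were called lower in every clone except E2E8, where they lay at -0.44 ± 0.12 (SE) and -0.38 ± 0.10 (SE). *Pacsin1* was called higher in every clone except E2G7, at 0.47 ± 0.16 (SE). Its call in D2A7 was lost with only the clone and WT in the fit (adjusted p = 0.0455 by limma). Calls in a single clone were *Syt11* lower in D2A7 (-0.77 ± 0.08 SE), *Homer3* higher in D2A7 (0.75 ± 0.06 SE) and *Syn1* lower in E2E8 (-0.82 ± 0.12 SE). The median gene of chromosome 8, which holds *Homer3*, lay 0.37 and 0.38 above WT in the D2A7 libraries, and with chromosomes centred, an alternative chosen after seeing the data, *Homer3* lay at 0.38 in D2A7 and was not called. With a pseudocount of 1 in place of 0.1, 2 genes were called lower in D2A7 and 1 in each other clone.

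**Figure D3:**
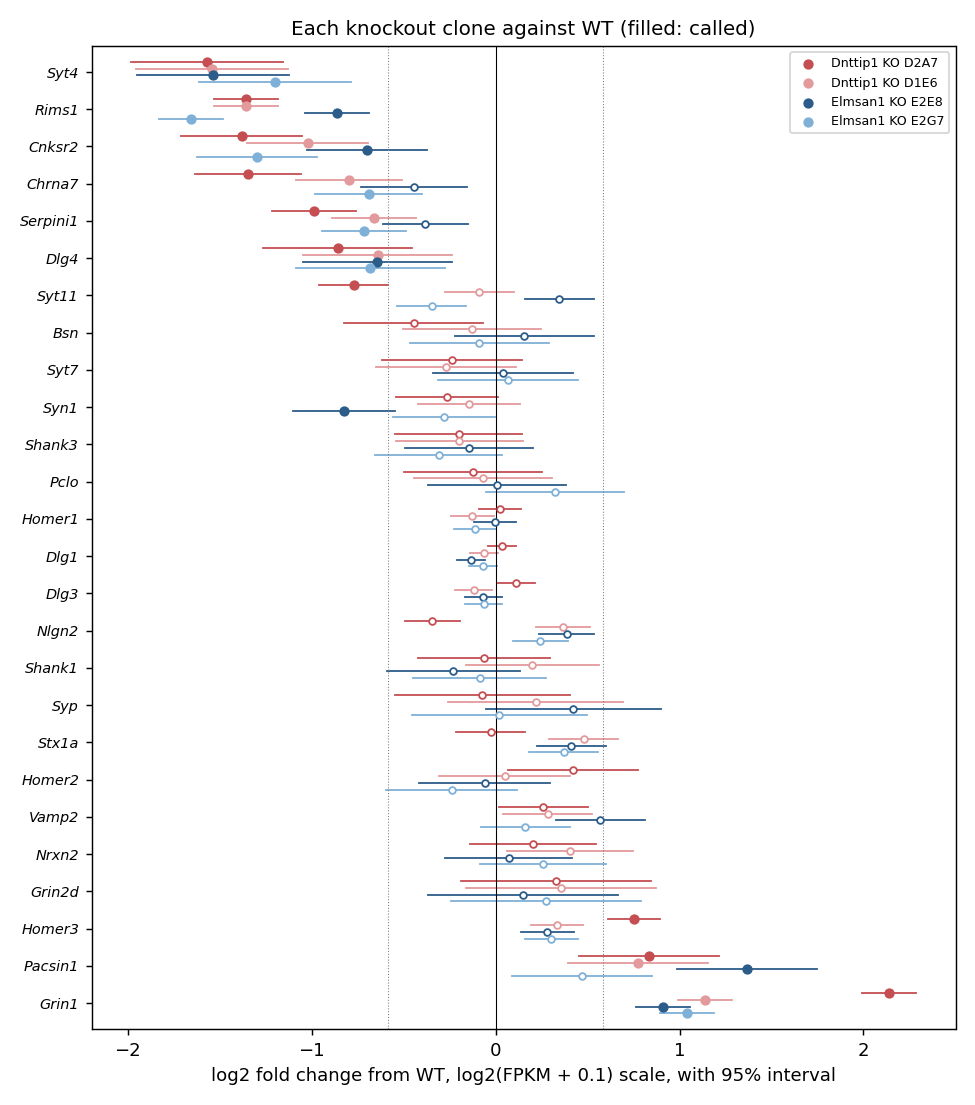
Log2 fold change from WT of the 26 measured synaptic genes in each KO clone, on the log2(FPKM + 0.1) scale, with 95% intervals from a fit over all 5 lines. Filled points met the calling rule, which *Syt4* could meet only as lower, dotted lines mark the fold change of 1.5, and the genes are ordered by their change in *Dnttip1* KO. The 4 clones lie together on the left in *Rims1*, *Syt4*, *Cnksr2* and *Dlg4* and on the right in *Grin1*, and on both sides of 0 in *Syt11* and *Nlgn2*.

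Between clones of the same knockout, 5 genes met the calling rule. At an adjusted p under 0.05 by limma alone, 3 genes were lower and 3 higher in D2A7 than in D1E6, beside 2963 and 3962 of all 16996. In E2E8 against E2G7, 1 was lower and 6 higher, beside 3579 and 4897 of all 16727. Between D2A7 and D1E6, 25 genes were tested, and *Grin1* was called higher in D2A7 (1.00 ± 0.06 SE, adjusted p = 0.000646), 4% of the genes beside 9.2% of all 16996 genes tested. *Nlgn2* (-0.71 ± 0.07 SE, adjusted p = 0.00221) and *Syt11* (-0.68 ± 0.08 SE, adjusted p = 0.00439) were lower in D2A7, 8% of the genes beside 3.73% of all. Between E2E8 and E2G7, 24 genes were tested, and *Pacsin1* (0.90 ± 0.13 SE, adjusted p = 0.00572), *Rims1* (0.79 ± 0.08 SE, adjusted p = 0.00241) and *Syt11* (0.70 ± 0.09 SE, adjusted p = 0.00441) were higher in E2E8, 12.5% of the genes beside 10.5% of all 16727, and 0 were lower beside 3.27%. The call of *Pacsin1* was lost without E2E8 replicate 1. Differences between clones and between their cultures cannot be told apart.

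Between the knockouts, 0 of 25 genes were called in either direction, beside 0.415% lower and 1.11% higher of 17600 genes tested by limma, and voom on recovered fragments called 0 as well. At an unadjusted p under 0.05, 3 of 25 genes passed beside 15.8% of all genes. These were *Grin1*, higher in *Dnttip1* KO by 0.66 on the log2 scale (95% interval 0.09 to 1.24), *Chrna7*, at -0.50 (-0.94 to -0.06), and *Syt7*, at -0.31 (-0.60 to -0.01). *Rims1* differed by -0.10 (-0.59 to 0.39), an interval that leaves room for a sizeable difference in either direction. Without D1E6 replicate 1 or without D1E6 replicate 2, 1 gene was called higher, beside 404 of 17513 and 359 of 17514 genes tested.

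The 10 genes below 0.1 FPKM include the best known parts of the neuronal release machinery and the AMPA receptor. *Nlgn1* had 0 fragments in all 10 libraries, *Gria1* 1, *Dlg2* 4 and *Nrxn3* 5 in total. *Gria2*, *Gria3*, *Shank2* and *Nlgn3* had 39, 137, 247 and 430 fragments over all libraries. Only *Nlgn3* passed 0.1 FPKM anywhere, in WT replicate 1 with 0.137 FPKM, whereas WT replicate 2 had 0.0503 FPKM.

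*Snap25* and *Syt1* were picked from these 10 after their values were seen. *Snap25*, the SNARE of the plasma membrane of neurons, had 15 and 21 fragments in WT, 2 and 2 in D2A7, 9 and 15 in D1E6, 8 and 11 in E2E8, and 19 and 11 in E2G7. In FPKM these were 0.0710 and 0.0815 in WT and at most 0.0354 in the KO libraries, which all lay below WT. *Syt1*, the calcium sensor of fast release, had 7 and 14 fragments in WT and between 0 and 4 in each KO library, although the KO libraries were deeper. With no level filter, the log2 fold changes were -0.59 for *Snap25* and -0.40 for *Syt1* in *Dnttip1* KO, and -0.53 and -0.38 in *Elmsan1* KO. Since the 2 genes were picked after their values were seen, these values are a description and no test is given. The log2 scale with a pseudocount of 0.1 compresses differences at this level, and other low genes such as *Gria3* and *Shank2* showed overlapping libraries.

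**Figure D4:**
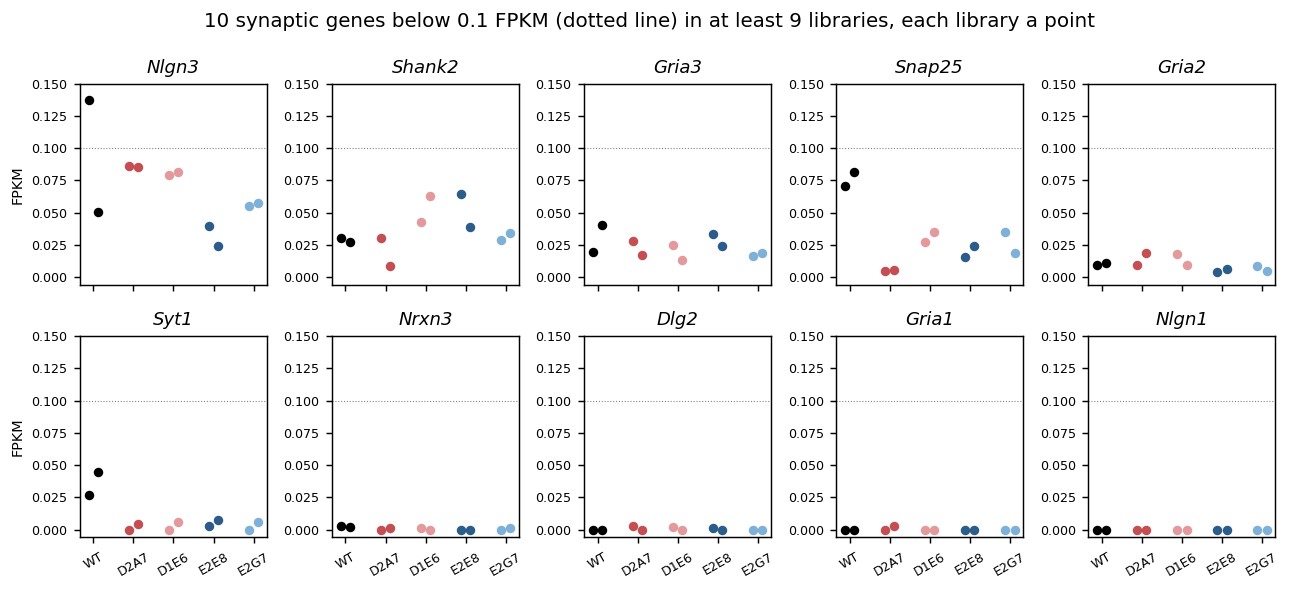
FPKM of the 10 synaptic genes that did not reach 0.1 FPKM in 2 libraries, on a linear axis, with a panel per gene and a point per library. The dotted line marks 0.1 FPKM. The WT points lie above the KO points in *Snap25* and *Syt1*, and most other panels show values near 0 or overlapping lines.

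*Grin1*, *Snap25*, *Syp* and *Syt4* share a sequence feature near their start. The RE1 element is a DNA element in neuronal genes that binds the repressor REST, and its core letters CAGCACC, any 2 bases and GGACAG were searched on both strands within 1000 bases of the annotated start in NCBIM37. The core was found at 4 of the 36 synaptic genes (11.1%) and at 51 of 22026 protein-coding genes (0.232%). It is shown for *Grin1*, *Snap25* and *Syp* with 2 bases before and 4 after the core, on the strand of the match, and capitals mark the matched letters.
Grin1, 155 bases after the start: ttCAGCACCtcGGACAGcacc
Snap25, 837 bases after the start: ctCAGCACCctGGACAGgagt
Snap25, 887 bases after the start: ttCAGCACCgcGGACAGcgat
Syp, 268 bases after the start: tcCAGCACCgtGGACAGagcc
The *Grin1* match, at chr2:25174534-25174554 on the minus strand, lies in a UTR exon. The *Snap25* matches, at chr2:136540024-136540044 and chr2:136540074-136540094 on the plus strand, lie in an intron, and the *Syp* match, at chrX:7215863-7215883 on the plus strand, lies in a coding exon. The *Syt4* match begins 219 bases after the start, also inside the gene. In the shorter RefSeq promoters, the full core was in 0 of 41 promoters of the synaptic genes and in 0.0365% of all, while CAGCACC alone was in 7.32% beside 7.14% and GGACAG alone in 26.8% beside 22.2%.

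A wider list of 192 other synaptic genes was counted beside the 36, of which 191 were in the table. In *Dnttip1* KO, 5 of 104 genes with 0.1 FPKM in a library of each group were called lower (4.81%) and 4 higher (3.85%), beside the 3.07% and 3.02% of all such genes. In *Elmsan1* KO, 5 of 100 were called lower (5%) and 2 higher (2%), beside 3.27% and 2.58%. Genes that were lower but reached 0.1 FPKM only in WT, such as *Gria4* and *Gabrb2*, are left out of these counts. Receptor genes had 3 lower calls of 20 in *Dnttip1* KO and 3 of 17 in *Elmsan1* KO, and 0 receptor genes were called higher in either knockout as a whole. Single clones differed. Under the same condition, D2A7 had 3 lower and 2 higher receptor calls of 19 against WT, and E2E8 had 4 and 2 of 17. D1E6 had 5 lower and 0 higher of 18, and E2G7 had 8 and 0 of 16. Shares of all genes under this condition were not computed for the clones. Vesicle and release genes had 0 lower and 3 higher calls of 53 in *Dnttip1* KO, and 1 lower and 2 higher of 53 in *Elmsan1* KO.

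Of that wider list, 106 genes were tested in both knockouts. In both, 5 lay past the calling rule on the lower side and 1 on the higher side. The 2 comparisons use the same 2 WT libraries, and the share of all genes called in both was not computed. Of the 5, *Gria4* and *Gabrb2* reached 0.1 FPKM only in WT, and *Slitrk5* did so in the *Elmsan1* KO comparison. *Chrna9*, a nicotinic receptor subunit, was at 1.16 and 1.56 FPKM in WT, between 0.245 and 0.324 in *Dnttip1* KO and between 0.345 and 0.617 in *Elmsan1* KO. *Grm4*, a metabotropic glutamate receptor, had log2 fold changes of -1.24 in *Dnttip1* KO and -0.86 in *Elmsan1* KO. *Gria4*, an AMPA receptor subunit, was at 0.303 and 0.379 FPKM in WT and at most 0.0779 in any KO library. *Gabrb2*, a GABA-A receptor subunit, was at 0.204 and 0.197 FPKM in WT and at most 0.0991 in any KO library. *Slitrk5*, a synaptic adhesion protein, was at 0.207 and 0.214 FPKM in WT and between 0.0403 and 0.106 in the KO libraries. *Vamp8*, a SNARE of endosomal and secretory vesicles in many tissues, rose from 4.95 and 4.99 FPKM in WT to between 6.95 and 9.18 in the KO libraries. It lies on chromosome 6, whose median gene lay above WT in D1E6, E2E8 and E2G7. In D2A7 that median was -0.08 in both libraries and *Vamp8* was at 8.04 and 8.52 FPKM. The part of the chromosome shift in its level was not tested. With an estimated correlation within clones, the adjusted p of *Chrna9*, *Grm4* and *Vamp8* ranged from 0.0872 to 0.435.

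Some neuron markers were also lower in the knockouts. Of 12 listed markers, 11 were in the table and 8 were tested. Of these, 5 were called lower in *Dnttip1* KO and 4 in *Elmsan1* KO, and 0 higher in either. Over all genes tested, 3.24% were lower and 3.26% higher in *Dnttip1* KO, and 3.68% and 2.74% in *Elmsan1* KO. *Gad2* reached 0.1 FPKM only in WT in the *Dnttip1* KO comparison, and without it 4 of 7 were lower, beside 3.07%. Single clones were also compared with WT, for neuron markers with 0.1 FPKM in a library of both. Called lower were 4 of 7 in D2A7, 6 of 7 in D1E6, 5 of 8 in E2E8 and 4 of 8 in E2G7. Over all genes, without that condition, 5.48%, 5.94%, 5.92% and 6.4% were lower in these clones. D1E6 and E2G7 each had 1 neuron marker called higher, beside 5.04% and 3.55% of all genes, and D2A7 and E2E8 had 0, beside 10.8% and 10.2%. *Nefl* lay above WT in D2A7 (10.9 and 10.4 FPKM, beside 7.49 and 8.04) and below it in the other KO clones. The summed level of the neuron markers was 152 to 159 FPKM in WT, 135 to 153 in *Dnttip1* KO and 103 to 151 in *Elmsan1* KO. Most of it came from *Stmn2*, which lay below WT in all KO libraries, and *Tubb3*, which lay above WT in D2A7, D1E6 and E2G7. The defining markers of mature and migrating neurons were near 0, with *Rbfox3* at no more than 0.0323 FPKM and *Dcx* at 0 in 8 of the 10 libraries. *Gad2*, the GABA-synthesizing enzyme, was at 0.416 and 0.498 FPKM in WT and at most 0.215 in the KO libraries. The summed level of fibroblast markers was 0.131 to 0.588 FPKM in all libraries. Of 6 neural progenitor markers, 1 of 2 tested (*Nes*) was higher in each knockout, and of 8 glia markers 5 were tested, of which 1 was higher in *Dnttip1* KO and 1 lower and 1 higher in *Elmsan1* KO. The part of these markers in the results for the synaptic genes was not tested, and in bulk RNA fewer cells that express a gene and less of its RNA per cell cannot be told apart.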

How the data were processed

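RNA-seq was performed on 10 libraries of mESCs, 2 for each of 5 lines. The authors prepared stranded total RNA libraries, sequenced read pairs, mapped them on NCBIM37 and counted them per gene with HTSeq, and the deposited values are FPKM. The submitters' processing notes name edgeR 3.16.5 and limma in R 3.3.1 for the authors' own tests. The strand setting of the counting is not given in the sources used here. GENCODE vM1 matched 33606 of the 34591 genes (97.2%) and gave positions and exon lengths.

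Libraries were scaled by median ratios, using the 11270 genes that reached 1 FPKM everywhere. Within each comparison, a gene entered the test if 2 or more of its libraries held 0.1 FPKM, and log2(FPKM + 0.1) was modelled by limma 3.58.1 in R 4.3.3 (moderated test with a variance trend, two-sided, Benjamini-Hochberg adjustment over all genes tested), and calls needed a 1.5-fold difference with p under 0.01 before adjustment. SE is the standard error of the log2 fold change. The comparisons were each knockout with WT, the knockouts with each other, the clones of a knockout with each other, and each clone with WT. The fits were tested on simulated data. FPKM times exon length gave whole fragments, within 0.05, for 98.3% to 98.6% of low values in each library, and for every value of the 36 genes. The fragments served for depth and for voom. Intervals cover the spread between libraries only.

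All 36 genes and the wider lists were chosen with earlier results of these data known. Values for every library are given for genes called in a knockout against WT, between clones of a knockout or between knockouts, and for those whose mean reached 5 FPKM, and the wider list is named where called in both knockouts. The motif was searched in NCBIM37, and promoters came from RefSeq (GRCm38.p6) and were placed relative to the older gene starts by matching their sequence to NCBIM37. The alternatives were other pseudocounts, filters, scalings, tests and thresholds, centred chromosomes, correlation within clones, a replicate block and leaving out each library. Centring in the clone fits and counts limited to genes with 0.1 FPKM in a library of each group were added after seeing the data. Tables and figures used Python 3.11.15, numpy 2.4.6, pandas 2.3.3 and matplotlib 3.10.9.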

Additional observations from a re-analysis of the deposited data

Results flagged for a closer look

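In *Stx1a* in *Elmsan1* KO, E2G7 replicate 2 stood apart from the other libraries. Its distance to the nearest of them made up 0.909 of the range of the 4 libraries, above the critical value of Dixon's test. This library was at 2.70 FPKM and the other 3 between 2.895 and 2.905 FPKM. This was 1 of 52 groups tested, and chance alone marks about 1 in 20.

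By limma's test of the difference itself, clones of the same knockout met the calling rule in 6 cases. D2A7 was above D1E6 in *Grin1* by 1.00 on the log2 scale, and the differences of D2A7 from D1E6 were -0.71 in *Nlgn2* and -0.68 in *Syt11*. E2E8 was above E2G7 in *Pacsin1* by 0.90, in *Rims1* by 0.79 and in *Syt11* by 0.70. All 4 libraries of each pair of clones were separated in these genes.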

How the results depend on the processing

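No change of sign was seen under the alternatives run for *Rims1*, *Cnksr2*, *Chrna7*, *Serpini1*, *Dlg4*, *Grin1* and *Pacsin1* in either knockout, whereas the counts of calls, in which *Syt4* is included here, depended on the pseudocount, the filter, the WT libraries and the treatment of clones. With a pseudocount of 1, *Dnttip1* KO had 1 lower and 1 higher call and *Elmsan1* KO had 1 lower, D2A7 had 2 lower calls against WT, D1E6 1 lower and 1 higher, E2E8 1 lower and 0 higher, and E2G7 1 lower. The comparison of D2A7 with D1E6 then had 0 lower and that of E2E8 with E2G7 had 0 higher calls. With only genes of a mean of at least 1 FPKM, the counts were 2 lower and 1 higher in *Dnttip1* KO and 1 lower in *Elmsan1* KO, since fewer genes enter, and 12 genes reach 1 FPKM in 2 or more libraries. With the correlation within clones they were 2 lower and 1 higher, and 1 lower. With quantile normalization, all libraries in a single fit, voom on recovered fragments, or an adjusted p under 0.05 with the fold change, *Dnttip1* KO had 1 higher call. Voom gave 5 lower calls in *Elmsan1* KO. Quantile normalization gave 4 lower calls in D2A7 against D1E6, and 1 lower and 1 higher in E2E8 against E2G7, and voom gave 5 lower and 1 lower. The cause was not tested.

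Leaving out each library in turn gave 1 to 6 lower and 0 to 2 higher calls in *Dnttip1* KO, 0 to 4 lower in *Elmsan1* KO, 0 to 1 higher between the knockouts and 2 to 3 higher in E2E8 against E2G7. The low counts against WT came without WT replicate 1 or WT replicate 2, where calls over all genes tested fell as well.

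Values close to 0 changed sign. *Dlg1* in *Dnttip1* KO was 0.0125 with the FPKM as deposited and 0.0195 with chromosomes centred, and ranged from -0.0327 to 0.00940 without a library. *Nlgn2* there was -0.0250 with quantile normalization and -0.000688 with voom, and ranged from -0.11 to 0.15 without a library. *Syt11* in *Elmsan1* KO was 0.00910, 0.0219 and 0.0499 with a pseudocount of 1, the FPKM as deposited and chromosomes centred, and ranged from -0.12 to 0.15 without a library. *Homer3* in *Elmsan1* KO was -0.0614 with chromosomes centred.

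A block on the replicate number gave 5 lower and 1 higher calls in *Dnttip1* KO and 2 lower in *Elmsan1* KO, and it changed no other count. The deviations of same-numbered libraries of different lines had correlations from -0.139 to 0.192. The main tests used no pairing by number, and with 2 libraries per line these values cannot exclude a shared replicate effect. Depth limits the genes below 0.1 FPKM, of which single libraries held 0 to 59 fragments.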
